A study of Mus musculus with 2 samples.

Results

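A rule meant for limb and body wall mesenchyme was applied to 2 single-cell libraries of mouse embryos. It took as members the barcodes that held at least 1 UMI (a counted RNA molecule) of a gene of limb or body wall position and signs of mesenchyme. The position genes were Tbx15, Tbx4, Tbx5 and Lmx1b. A member also held UMIs of at least 2 of the 8 mesenchymal genes Pdgfra, Prrx1, Prrx2, Twist1, Twist2, Col1a2, Col3a1 and Fap, and 0 UMIs of Wt1, Gata4, Gata6, Alx1, Cdh5, Epcam and Sox2. Members were thus chosen by their UMI counts of these genes. The rule found 1427 members among 37628 barcodes, 224 of 19056 in the NTD library and 1203 of 18572 in the control library. The NTD library came from embryos of pregnant mice kept on a low folate diet and given methotrexate, a folate antagonist, by intraperitoneal injection at 1.5 mg/kg on gestational day 7.5. These embryos were small and delayed to varying degrees, with hindbrain malformation and spina bifida. The control library came from embryos of mice given normal saline, which looked round and had closed neural tubes when scored between embryonic days 9.5 and 10.5. The labels name brain as the tissue of both libraries. No source used here gives the control diet, the strain, the number and sex of the embryos pooled or the stage at dissociation. Each group is 1 library, so diet, drug, delay, stage, dissected region, sex of the embryos and library cannot be told apart. No test between groups was possible.

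Limb buds arise from lateral plate mesoderm at fixed levels of the trunk. Tbx5 marks and is required for the forelimb field, and Tbx4 with Pitx1 marks the hindlimb field. Lmx1b gives limb mesenchyme its dorsal character, and outside the limb it acts in dopaminergic and serotonergic neurons, the midbrain-hindbrain boundary, the eye and the kidney. Tbx15 is expressed in limb, body wall and craniofacial mesenchyme and acts in skeletal and dermal patterning. Hox genes of the posterior paralog groups are switched on in order along the trunk and then again along the limb, where groups 9 to 13 pattern its segments. In mm10 coordinates from GENCODE M21, Tbx15 lies on the plus strand of chromosome 3 from 99240381 to 99354259, Tbx4 on the plus strand of chromosome 11 from 85886422 to 85916097, Tbx5 on the plus strand of chromosome 5 from 119832668 to 119885219, and Lmx1b on the minus strand of chromosome 2 from 33560965 to 33640511.

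The NTD members held 840902 UMIs in all and the control members 4269270. Median depth was 3114 UMIs and 1958 genes per NTD member and 2955 UMIs and 1957 genes per control member, close to each other and above the library medians of 2456 UMIs in NTD and 2234 UMIs in control. Members ranged from 1613 to 11528 UMIs in NTD and from 1028 to 53651 UMIs in control, where the next deepest member held 15714. Ribosomal protein genes took 11.98% of UMIs in NTD members and 6.63% in control members. Xist, transcribed from the inactive X chromosome, stood at 1193 CPM (summed UMIs scaled to a fixed total) in NTD members against 65.4 CPM in control members, while the Y-linked Uty stood at 58.3 CPM against 240 CPM. The 2 libraries shared 105 barcode sequences, 2 of them among NTD members and 4 among control members. Levels below are in CPM, from UMIs summed over the barcodes of a set and scaled to that set's total. All intervals are 95% and cover counting error only, not variation between embryos.

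Members made up 1.18% of the NTD library (1.03 to 1.34, exact binomial) and 6.48% of the control library (6.13 to 6.84), a difference of -5.30 percentage points (-5.69 to -4.92). These shares follow from the rule and are a description. Just 1 UMI of a position gene carried 157 of the NTD members and 524 of the control members, and exactly 2 mesenchymal genes carried 112 and 472. Just outside the rule, 182 NTD and 460 control barcodes had a position gene but 1 mesenchymal gene. A further 178 NTD and 461 control barcodes failed by 1 UMI of an excluded gene. Barcodes with 2 or more mesenchymal genes, no excluded gene and no position gene numbered 2194 in NTD and 3170 in control, and they serve below as other mesenchyme. Of the barcodes that passed both positive parts of the rule, 346 of 570 in NTD and 776 of 1979 in control were dropped for an excluded gene, mostly Sox2 (167 in NTD, 277 in control) and Alx1 (174 in NTD, 228 in control).

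The 2 libraries filled the rule with different genes. Tbx4 was seen in 3.57% of NTD members (1.55 to 6.92) and 17.5% of control members (15.4 to 19.7). Tbx5 was seen in 4.91% of NTD members (2.48 to 8.62) and 20.4% of control members (18.1 to 22.8). These are 8 and 11 NTD barcodes against 210 and 245 control barcodes. Tbx15 was seen in 46.0% of NTD members and 61.4% of control members, and Lmx1b in 51.8% of NTD members and 41.8% of control members. Of the mesenchymal genes, Prrx1, a homeobox gene of limb and head mesenchyme, was the most often seen, in 62.5% of NTD members and 74.6% of control members. Pdgfra, the PDGF receptor of mesenchyme, was seen in 23.2% of NTD members and 46.0% of control members, whereas Twist1 was seen in 42.4% of NTD members and 27.3% of control members. Barcodes with mesenchymal genes and no position or excluded gene had the same directions for Pdgfra, 23.2% in NTD and 34.0% in control, and Twist1, 37.0% and 31.3%. For Prrx1 the direction there was the other way, 52.9% and 48.5%. Fap, a surface protease listed as a marker of these cells, was seen in 14.3% of NTD members (9.98 to 19.6) and 19.4% of control members (17.2 to 21.7), with overlapping intervals.

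**Figure D1:**
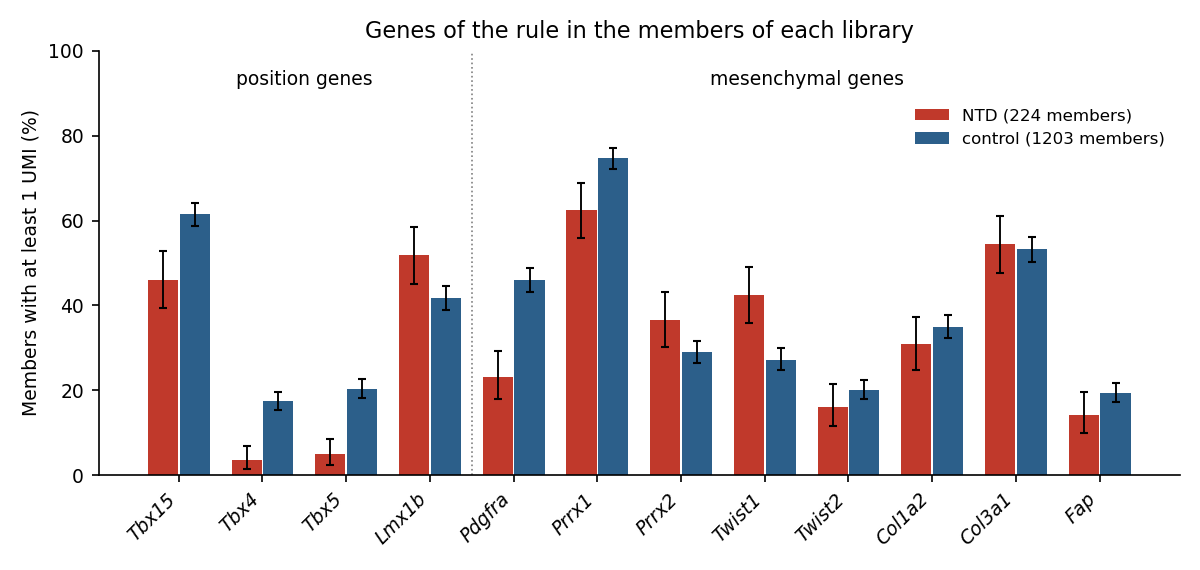
Share of members with at least 1 UMI of each gene of the rule (vertical axis, percent), NTD bars left of control bars, with exact 95% binomial intervals. Tbx4 and Tbx5 were seen in 3.57% and 4.91% of NTD members and in 17.5% and 20.4% of control members; the rule itself used every gene shown.

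Pairs of position genes were counted among members. The rule chose members by at least 1 of these genes, so the counts cannot show whether the genes go together. Among all control members Tbx15 was seen in 61.4% and Lmx1b in 41.8%, above their shares within the pairs that follow. Tbx15 and Lmx1b were seen together in 239 control members, 32.3% of those with Tbx15 and 47.5% of those with Lmx1b. Tbx15 was also held by 105 of the 210 barcodes with Tbx4 and by 103 of the 245 with Tbx5. Tbx4 and Tbx5 were seen together in 12 barcodes, 5.71% of the Tbx4 barcodes and 4.90% of the Tbx5 barcodes. In the NTD library Tbx15 and Lmx1b were seen together in 10 members, 9.71% of those with Tbx15 and 8.62% of those with Lmx1b, and Tbx4 and Tbx5 in none. A single position gene was seen in 92 NTD members for Tbx15, 104 for Lmx1b, 6 for Tbx4 and 9 for Tbx5, with 13 holding several. Among control members the same counts were 398, 220, 80 and 118, with 387 holding several.

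Barcodes of cells that should lack these genes were read for comparison. Blood barcodes, with at least 5% haemoglobin UMIs, numbered 90 in NTD and 74 in control at median depths of 2713.5 and 1799 UMIs. Lmx1b was seen in 8.89% of the NTD and 8.11% of the control blood barcodes, Tbx15 in 2.22% and 8.11%, Tbx5 in 1.11% and 4.05%, and Tbx4 in 1.11% and 2.70%. In each library 1 of them met the whole rule. UMIs of 2 or more mesenchymal genes were seen in 30.0% of the NTD and 16.2% of the control blood barcodes. Of barcodes with UMIs of at least 4 neuron genes, at medians of 3009 UMIs in NTD and 3277 UMIs in control, 23.8% of 4014 in NTD and 34.3% of 2603 in control also held 2 mesenchymal genes, and 42 and 135 of them were members. In macrophage barcodes, 46 in NTD and 37 in control at medians of 5085.5 and 3171 UMIs, Tbx15 was seen in 8.70% and 21.6%, Lmx1b in 17.4% and 10.8%, and 3 in each library were members. The rule fixes these genes in members, so the shares describe how often they were seen outside them, and a single UMI of a position gene does not by itself tell a member from background.

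The control members were set against the other mesenchyme of the same library, where a ratio of at least 2-fold with at least 20 UMIs over both sums is counted. Of 15543 genes measured, 190 were at least 2-fold higher in members (1.22%) and 250 at least 2-fold lower (1.61%), with a median log2 ratio of 0.01. With 2 counts added in place of 0.5, 190 were higher and 132 lower. The rule chose both sets, so these ratios are descriptions. Among genes at 100 CPM or more in either set, 14 were higher (0.54%) and none lower (0%). Gpc5, a glypican that binds growth factors at the cell surface, stood at 417 CPM in members and 89.7 CPM in other mesenchyme, a log2 ratio of 2.22 (2.09 to 2.34), and was seen in 42.5% and 11.6% of barcodes. Prdm16, a zinc finger regulator of craniofacial and brown fat development, stood at 294 CPM against 97.8 CPM, a log2 ratio of 1.59 (1.46 to 1.72). Its relative Mecom stood at 1712 CPM against 680 CPM, a log2 ratio of 1.33 (1.28 to 1.38), and was seen in 74.3% of members and 44.1% of other mesenchyme. The Slit receptor gene Robo2 stood at 1074 CPM against 395 CPM, a log2 ratio of 1.44 (1.38 to 1.51). Lix1, a marker of early limb and hindbrain, had a log2 ratio of 1.44 (1.31 to 1.57), and the kinesin gene Kif26b 1.09, at 559 CPM in members and 263 CPM in other mesenchyme.

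Among limb genes that the rule did not name, the distal limb list stood higher in control members, and the other limb lists were mixed. All 13 genes measured of the distal limb list had positive log2 ratios, with a median of 0.75, and 3 passed 2-fold: Lhx9, Hoxd11 and Hoxa11. Lhx9, a LIM homeobox gene of distal limb mesenchyme, stood at 77.5 CPM in members and 17.1 CPM in other mesenchyme, a log2 ratio of 2.18 (1.90 to 2.47), and was seen in 18.2% of members and 3.66% of other mesenchyme. Of the posterior limb and hedgehog list, Hoxd10 at 1.85 (1.27 to 2.46), Grem1, a BMP antagonist of the limb, at 1.34 (0.44 to 2.28) and Hoxd9 at 1.14 (0.67 to 1.60) passed 2-fold, 3 of 13 measured, with 7 above and 6 below 0 and a list median of 0.05. The hedgehog targets were not among them: Ptch1 had a log2 ratio of -0.38 (-0.50 to -0.26) and Hhip -0.48 (-0.90 to -0.08). Shox2, needed for the proximal limb skeleton, stood at 47.1 CPM in members and 14.5 CPM in other mesenchyme, a log2 ratio of 1.70 (1.38 to 2.04), the only 1 of 8 genes measured on the proximal list past 2-fold, where the median was 0.14. Meis1 and Meis2, also on that list, stood at 638 CPM and 1267 CPM in members against 637 CPM and 1270 CPM in other mesenchyme. Pitx1 stood at 39.1 CPM against 16.9 CPM, a log2 ratio of 1.21 (0.89 to 1.54). Cyp26b1, which breaks down retinoic acid in the distal limb, had a log2 ratio of 1.08 (0.77 to 1.40), and Tbx18, a T-box gene of limb, somite and mesothelium, 1.55 (1.23 to 1.88). The limb outgrowth signal Fgf10 stood at 0.62 (0.37 to 0.86), short of 2-fold, as were all 10 genes measured of the FGF loop, whose median was 0.34. All 4 forelimb-level Hoxc genes were below 0, with a median of -0.23 and none past 2-fold, and Hoxc4 stood at -0.25 (-0.45 to -0.06). Of the limb ectoderm and ridge list, 7 of 11 measured were below 0 with a median of -0.80, and 1, Dlx6, was at least 2-fold lower.

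Some genes of other mesoderm were lower in control members. Of the paraxial mesoderm list, 3 of 10 measured were at least 2-fold lower, against 1 higher, Tbx18: Pax9, which acts in sclerotome and pharyngeal pouches, at a log2 ratio of -1.35 (-1.83 to -0.92), Meox1, a somite gene, at -1.03 (-1.52 to -0.60), and Uncx, a gene of the posterior somite, at -1.01 (-1.44 to -0.61). Lhx8, a gene of jaw mesenchyme, was at -1.21 (-1.83 to -0.67). Nkx2-3, a gene of visceral mesenchyme, was at -1.35 (-2.63 to -0.37), with 9 UMIs in members and 49 UMIs in other mesenchyme. Markers of neurons and neural progenitors were also lower, all 8 of each list below 0 with medians of -0.31 and -0.33 and none past 2-fold. Cartilage genes stood close to other mesenchyme, with a list median of 0.05 and 0 of 11 measured past 2-fold either way. Sox9, the regulator of cartilage fate, stood at 57.6 CPM in members against 49.7 CPM, and Col2a1, the main cartilage collagen, at 68.2 CPM against 84.5 CPM. Runx2, the regulator of bone fate, stood at 139 CPM against 71.8 CPM, a log2 ratio of 0.95 (0.79 to 1.12).

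**Figure D2:**
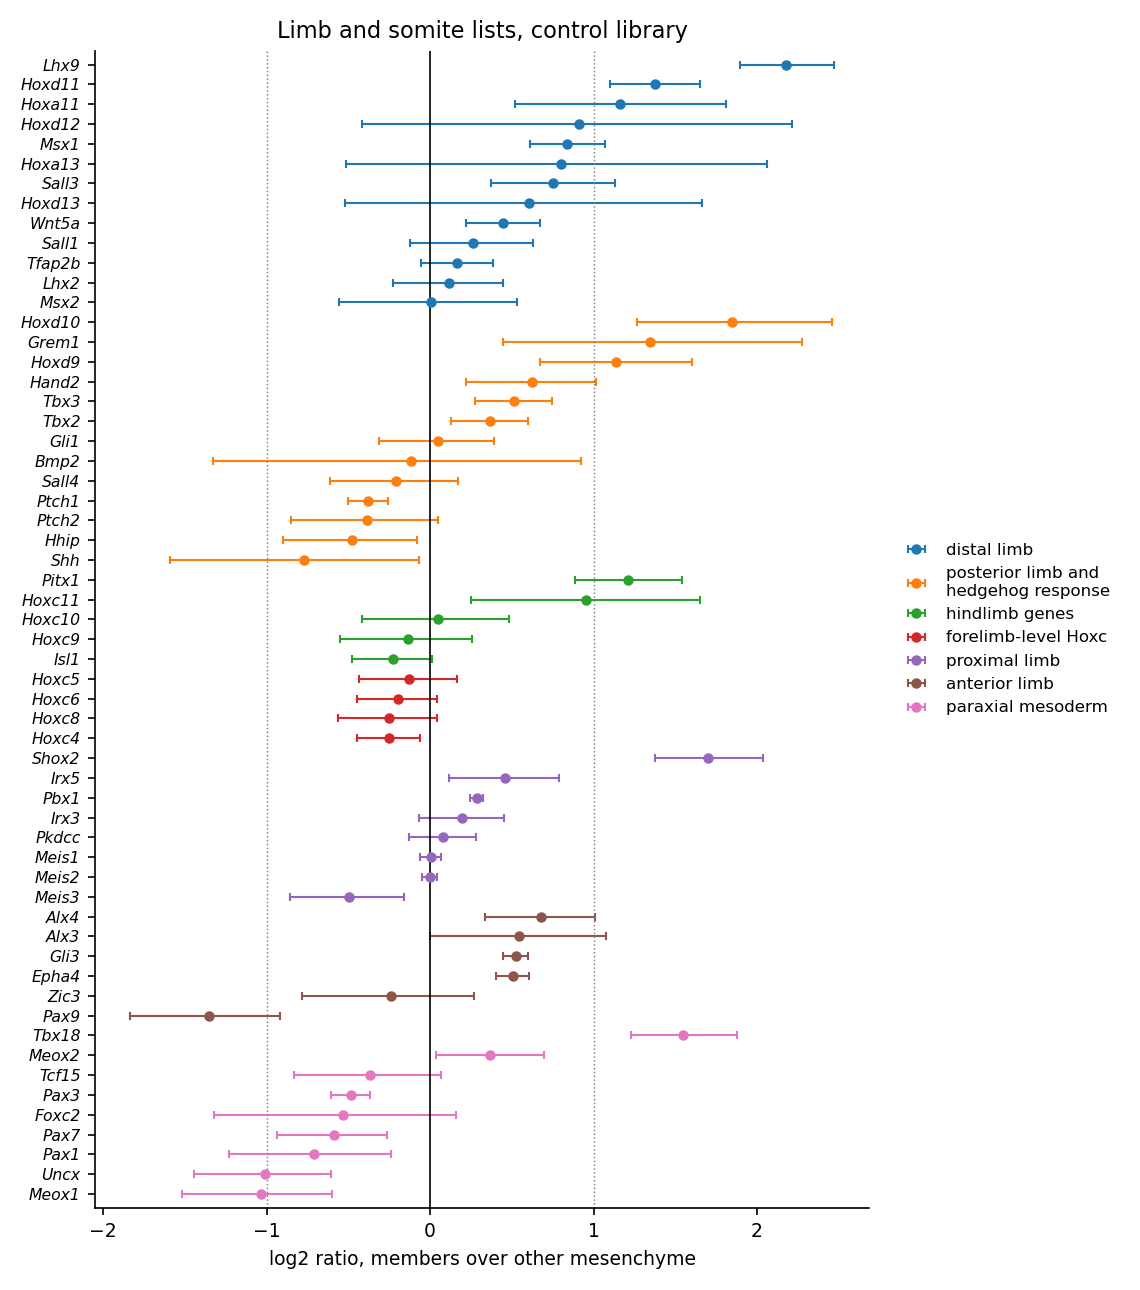
Log2 ratio of summed levels in control members over other mesenchyme of the control library (horizontal axis) for each measured gene of 7 lists (colours), with exact 95% counting intervals; dotted lines mark 2-fold. All 13 distal limb genes lie to the right of 0, and Lhx9 reaches 2.18, while Pax9, Uncx and Meox1 lie past the left line.

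Hox levels separated the control members from other mesenchyme at groups 9 to 11 and separated the 2 libraries at every group from 3 to 11. In the control library, group 9 summed to 177 CPM in members (165 to 190) and 118 CPM in other mesenchyme (111 to 126). Group 10 summed to 109 CPM in members (99.7 to 120) and 44.6 CPM in other mesenchyme (40.3 to 49.3), and group 11 to 77.3 CPM (69.2 to 86.1) and 31.5 CPM (27.9 to 35.5). At groups 3 to 8 the members lay at or below other mesenchyme, as at group 4 with 167 CPM (155 to 180) in members and 190 CPM (181 to 199) in other mesenchyme. Groups 12 and 13 were low in both sets, at 3.28 CPM and 7.03 CPM in members. In the NTD library no group exceeded 20.2 CPM in members, the value of group 4 (11.8 to 32.4). NTD members held 16 UMIs of group 9, and 11 of these were in the 11 NTD barcodes with Tbx5, a level of 214 CPM there (107 to 383) against 7.06 CPM in the rest of the NTD library (6.37 to 7.80).

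**Figure D3:**
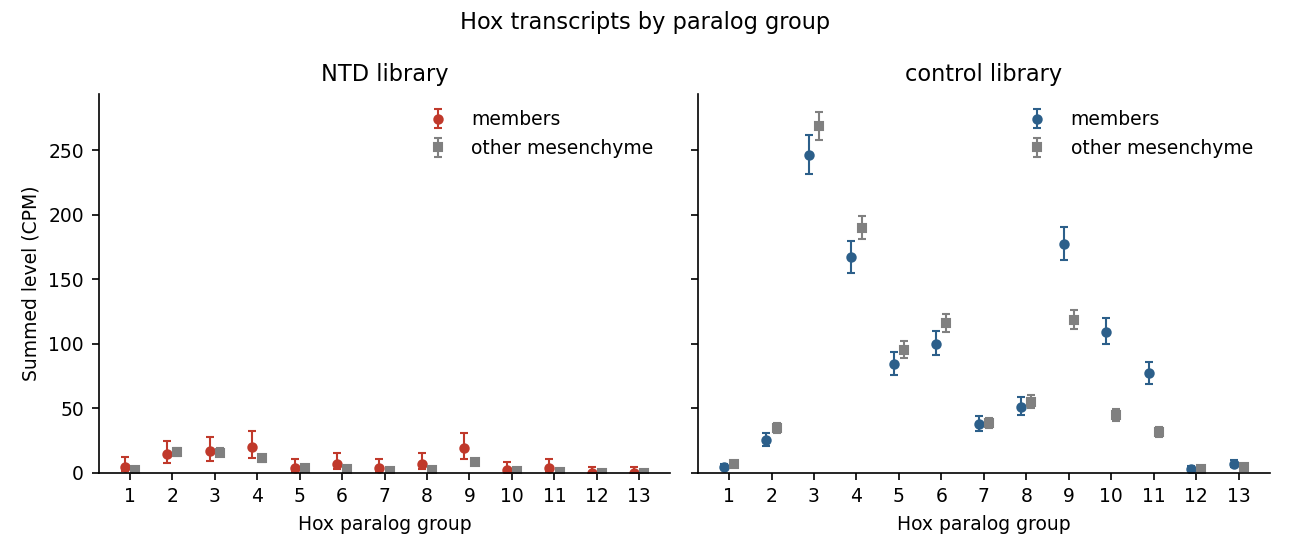
Summed level of each Hox paralog group (vertical axis, CPM; horizontal axis, group) in members (circles) and other mesenchyme (squares), with the NTD library in the left panel and the control library in the right panel, and exact 95% Poisson intervals. Control members stand above other mesenchyme at groups 9, 10 and 11, and no NTD group exceeds 20.2 CPM in members.

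Over groups 4 to 13, a UMI was seen in 19 NTD members, 8.48% (5.18 to 12.9), and 976 control members, 81.1% (78.8 to 83.3), a difference of -72.6 percentage points (-76.3 to -67.7). Every barcode was then thinned to 1500 UMIs, with members kept as chosen by all UMIs. This left out 50 shallower control members and no NTD member, and the shares were 5.36% and 62.4%. The summed level was 66.6 CPM in NTD members and 815 CPM in control members, a log2 ratio of -3.601 (-4.02 to -3.23). Outside the members the level was also lower in NTD. In other mesenchyme it was 31.7 CPM in NTD and 697 CPM in control, and in the rest of each library 33.8 CPM and 718 CPM. Barcodes with neuron genes and no mesenchymal UMI held a UMI of these genes in 6.78% of 1697 in NTD and 70.0% of 881 in control, at medians of 2736 and 2675 UMIs. Blood barcodes held one in 13.3% (7.08 to 22.1) in NTD and 54.1% (42.1 to 65.7) in control. The NTD members' share lay within the range of these other NTD sets, while their summed level of 66.6 CPM, from 56 UMIs, was above the 33.8 CPM of the rest of the NTD library. The level was uneven among them, at 25.7 CPM (8 UMIs) in barcodes with Tbx15 alone and 27.0 CPM (11 UMIs) in those with Lmx1b alone. Genes of the posterior Hox list were measured mainly through the larger sum of the rest of the NTD library, and 6 of 23 had 0 UMIs in NTD members. No count or median over the list is therefore given for NTD members against that rest. Of the 16 UMIs of group 9 in NTD members, 11 lay in the 11 barcodes with Tbx5. Hoxa9 had 9 UMIs in NTD members, a log2 ratio of 2.44 (1.21 to 3.35) over the rest. The 4 forelimb-level Hoxc genes, also on the posterior Hox list, had from 2 to 9 UMIs each in NTD members. Of these the interval of Hoxc4, at a log2 ratio of 1.51 over the rest (0.28 to 2.38), lay above 0. What part free RNA has in these UMIs was not tested. The share was higher among the 19 NTD members with Tbx4 or Tbx5, of which 2 of 8 and 5 of 11 held a Hox UMI, against 91.4% of control Tbx4 cells and 86.3% of control Tbx5 cells. With only Tbx4 and Tbx5 as position genes, the log2 ratio of the Hox level, NTD over control, was -1.315 (-1.90 to -0.83). In summed counts, fewer expressing cells and less RNA per cell cannot be told apart.

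The position genes were fixed by the rule and say nothing about the label. Of genes outside the rule, Hox groups 9 to 11, Lhx9, Shox2 and Pitx1 stood higher in control members than in other mesenchyme. Other limb genes did not: Hox groups 3 to 8 lay at or below other mesenchyme, and all 4 forelimb-level Hoxc genes were below 0. Shox2 was the only 1 of 8 proximal genes past 2-fold (list median 0.14), and Pitx1 the only 1 of 5 measured hindlimb genes (list median 0.05). In the NTD library 196 of the 224 members hold Tbx15 or Lmx1b alone, with Hox UMIs in 4.35% and 5.77% of them against 6.91% of the whole library. These are called members by the rule and not limb or body wall cells.

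Among control members, 198 barcodes with Tbx4 and no Tbx5 (Tbx4 cells) were set against 233 with Tbx5 and no Tbx4 (Tbx5 cells). The 2 genes mark the hindlimb and forelimb fields, but a UMI of either does not by itself place a cell in that field. Control blood barcodes held Tbx4 in 2.70% and Tbx5 in 4.05%. Of 9863 genes measured, 146 were at least 2-fold higher in Tbx4 cells (1.48%) and 165 at least 2-fold lower (1.67%), with a median log2 ratio of 0.01. Of the 7 genes of the hindlimb list, Hoxc12 and Hoxc13 had too few UMIs to be measured, and Hoxc10 and Hoxc11 reached 20 UMIs mainly through the Tbx4 cells, so no count or median is given over the list. Pitx1, which sets hindlimb identity, was seen in 30.3% of Tbx4 cells and 3.00% of Tbx5 cells and stood at 111 CPM and 10.5 CPM, a log2 ratio of 3.32 (2.39 to 4.57). Isl1, which acts upstream of hindlimb initiation, stood at 76.1 CPM and 25.7 CPM, a log2 ratio of 1.55 (0.82 to 2.35). Hoxc10 had 17 UMIs in Tbx4 cells and 4 UMIs in Tbx5 cells, a log2 ratio of 2.25 (0.77 to 4.41). Hoxc11 had 19 UMIs and 1 UMI, and Hoxc9 20 UMIs and 9 UMIs, a log2 ratio of 1.41 (0.25 to 2.77). The 4 Hoxc genes listed for the forelimb level did not lean to Tbx5 cells: Hoxc5 at 2.11 (1.24 to 3.16) and Hoxc8 at 1.35 (0.53 to 2.27) were higher in Tbx4 cells, and Hoxc6 at 0.49 (-0.20 to 1.19) and Hoxc4 at 0.21 (-0.38 to 0.80) had intervals that included 0.

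For most other limb genes measured no difference was detectable at this depth. Hoxa9 stood at 158 CPM in Tbx4 cells and 137 CPM in Tbx5 cells, a log2 ratio of 0.21 (-0.18 to 0.59). Hoxd11 at -0.24 (-0.80 to 0.31), Lhx9 at 0.01 (-0.54 to 0.55), Fgf10 at 0.37 (-0.17 to 0.91) and Hand2, a posterior limb gene, at -0.06 (-0.96 to 0.81) all had intervals that included 0, which bound the difference and do not show equality. Hoxa11 was higher in Tbx4 cells at 1.41 (0.25 to 2.77), with 20 UMIs against 9 UMIs, and Hoxb4 lower at -1.29 (-2.27 to -0.45). The hedgehog targets Gli1 at 1.14 (0.26 to 2.11) and Hhip at 1.32 (0.31 to 2.48) were higher in Tbx4 cells, and Ptch1 stood at 0.39 (0.05 to 0.74). Gpc5, which had the highest ratio of control members over other mesenchyme among genes outside the rule at 100 CPM or more, stood at 704 CPM in Tbx4 cells and 388 CPM in Tbx5 cells, a log2 ratio of 0.86 (0.65 to 1.06).

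Higher in Tbx5 cells were Galntl6, a glycosyltransferase gene, at 40.2 CPM in Tbx4 cells and 167 CPM in Tbx5 cells, a log2 ratio of -2.04 (-2.70 to -1.47), and Ebf2, a gene of mesenchymal and adipogenic precursors, at 168 CPM and 381 CPM, a log2 ratio of -1.18 (-1.50 to -0.87). Ebf2 was seen in 22.7% of Tbx4 cells and 37.3% of Tbx5 cells. The growth factor gene Tgfb2 had a log2 ratio of -1.29 (-1.88 to -0.75), the endothelin receptor gene Ednra -1.11 (-1.51 to -0.74) and the adhesion gene Alcam -1.10 (-1.53 to -0.70). Irx5, a homeobox gene of the proximal limb list, was at -1.21 (-2.33 to -0.27), with 12 UMIs in Tbx4 cells and 35 UMIs in Tbx5 cells. Fap stood at 38.8 CPM in Tbx4 cells and 81.9 CPM in Tbx5 cells, a log2 ratio of -1.06 (-1.78 to -0.42). Tbx4 and Tbx5 cells had median depths of 3046 and 3114 UMIs.

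**Figure D4:**
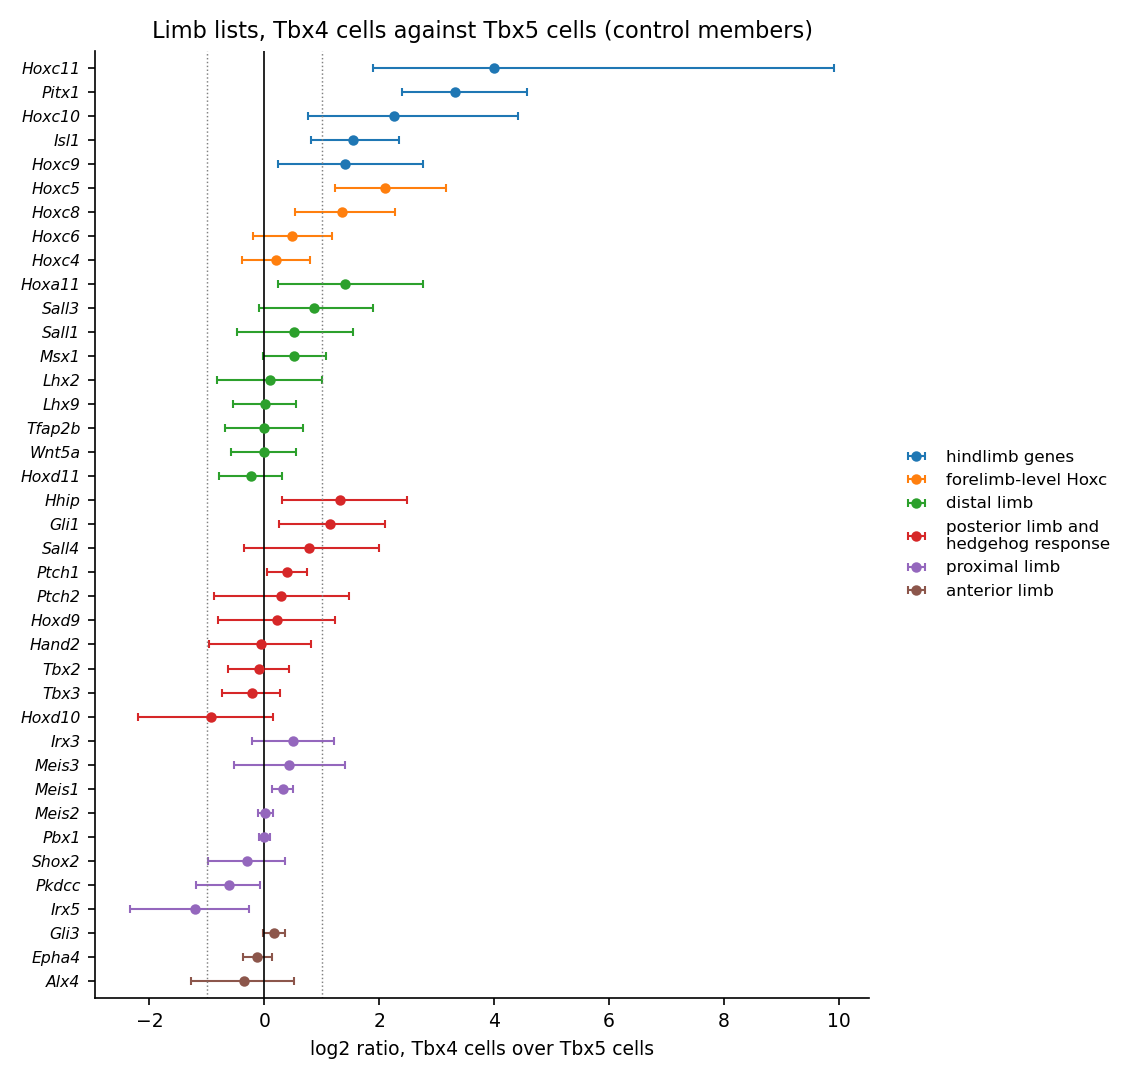
Log2 ratio of summed levels in Tbx4 cells over Tbx5 cells among control members (horizontal axis) for each measured gene of 6 limb lists (colours), with exact 95% counting intervals; dotted lines mark 2-fold. Pitx1 lies past the right line at 3.32, and Irx5 lies past the left line at -1.21.

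Members that held Lmx1b as their only position gene were set against those that held Tbx15 alone, a comparison chosen after the data were seen. In the NTD library, of 6963 genes measured, 389 were at least 2-fold higher in the 104 Lmx1b barcodes (5.59%) and 186 at least 2-fold lower (2.67%), with a median log2 ratio of -0.01. Some genes with known roles in neural tissue were among the highest ratios in the Lmx1b barcodes, while the neural progenitor list did not lean their way. Of that list 6 genes were measured, with 3 above and 3 below 0, none past 2-fold and a median of 0.18. Fabp7, a lipid carrier of radial glia, stood at -0.01 (-0.40 to 0.38), the Notch target Hes5 at -0.07 (-0.66 to 0.54) and the neural factor Pou3f2 at -0.06 (-0.98 to 0.90). Erbb4, a neuregulin receptor, stood at 648 CPM against 28.9 CPM in Tbx15 barcodes, a log2 ratio of 4.41 (3.54 to 5.63), and its ligand gene Nrg3 at 213 CPM against 16.1 CPM. Fgf14, which regulates neuronal sodium channels, was at 3.75 (2.91 to 4.91). Rmst, a noncoding RNA of midbrain and other neural progenitors, stood at 680 CPM against 106 CPM, a log2 ratio of 2.66 (2.16 to 3.25), and Rfx4, a neural tube patterning gene, was at 2.72 (1.75 to 4.07). Ntn1, the floor plate guidance cue, was at 3.19 (2.02 to 4.98) and Otx2os1, the antisense transcript of the midbrain and forebrain gene Otx2, at 3.26 (1.98 to 5.34). Of the neuron list, 3 of 8 measured were at least 2-fold higher, with a median of 0.54, among them Elavl4, a neuronal RNA-binding protein gene, at 275 CPM against 57.8 CPM. The neuronal tubulin gene Tubb3 stood at -0.02 (-0.36 to 0.32). Erbb4 was seen in 44 of the 104 Lmx1b barcodes and 8 of the 92 Tbx15 barcodes. Without the deepest barcode of each set, the one with the most UMIs in all, Erbb4 stood at 4.22 and Rmst at 2.29. That barcode need not hold the most UMIs of a given gene. Within the Lmx1b set, 1 barcode held 28.7% of the Nrg3 UMIs, 1 held 22.7% of the Rmst UMIs and 1 held 13.3% of the Erbb4 UMIs. Ratios without the barcode richest in each gene were not computed.

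Genes of mesenchyme went both ways in the NTD Lmx1b barcodes. Of the mesenchymal genes outside the rule, 7 of 8 measured were below 0, with a median of -0.53 and none past 2-fold, and 13 of 16 matrix genes were below 0, with a median of -0.39 and 1 at least 2-fold lower. The cartilage list had a median of -0.14 over 8 genes, with 1 at least 2-fold lower. Connective tissue and dermis genes had a median of 0.05 over 11 genes, with 2 higher and 1 lower. Higher in Lmx1b barcodes were Igfbp5, which binds insulin-like growth factors, at 1.27 (0.35 to 2.38), Ebf2 at 1.07 (0.57 to 1.62), Meis1 at 0.86 (0.31 to 1.46) and Meis2 at 0.58 (0.26 to 0.91). Kif26b, the kinesin gene, stood at 85.9 CPM in Lmx1b barcodes and 382 CPM in Tbx15 barcodes, a log2 ratio of -2.14 (-2.74 to -1.60). Runx2 stood at 44.2 CPM and 144 CPM, a log2 ratio of -1.69 (-2.59 to -0.89). Fstl1, a secreted follistatin relative of mesenchyme, was at -1.54 (-2.26 to -0.89) and Lef1, a Wnt effector, at -1.54 (-2.13 to -0.98). Prrx1 was seen in 56.7% of Lmx1b barcodes and 65.2% of Tbx15 barcodes. The posterior Hox genes, the hindlimb list and the Hoxc list had no gene with enough UMIs to be measured in either NTD set.

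In the control library the same split had 256 of 11040 genes at least 2-fold higher in the 220 Lmx1b barcodes (2.32%) and 177 lower (1.6%). The Lmx1b sums held 407637 UMIs in NTD and 811782 UMIs in control, and shallower sums put more genes past 2-fold by counting error, so the shares of the 2 libraries are not compared. The deepest control member, with 53651 UMIs, held 6.61% of the UMIs of the Lmx1b set and carried several of its highest ratios. Gmnc, a regulator of multiciliated cells, stood at a log2 ratio of 6.32 with it and 3.33 without it, Lrrc4c, a synaptic adhesion gene, at 2.43 and 0.66, Sgcz, a sarcoglycan, at 2.37 and 1.26, and Dkk2, a Wnt modulator, at 1.70 and 0.80. Ratios that stayed close were those of Kirrel3, an adhesion gene, at 451 CPM in Lmx1b barcodes and 89.7 CPM in Tbx15 barcodes, 2.32 with that barcode and 2.37 without it. Zic1, a zinc finger gene of dorsal neural tube and mesoderm, stood at 1.16 with it and 1.18 without it, and the scavenger receptor gene Colec12 at 1.46 and 1.27. The neuron list stood close between the sets here, with 0 of 8 past 2-fold and a median of 0.12, and Elavl4 stood at 138 CPM in Lmx1b barcodes and 127 CPM in Tbx15 barcodes. All 8 measured genes of the FGF loop, through which limb mesenchyme and ridge signal to each other, were below 0 with a median of -0.95. Of these 3 passed 2-fold: Spry2, an FGF inhibitor, at -1.17 (-2.68 to -0.00), Etv4, an FGF target, at -1.08 (-2.05 to -0.26) and Dusp6, an FGF-induced phosphatase, at -1.07 (-2.37 to -0.02). Posterior Hox genes had 0 of 19 past 2-fold and a median of -0.03.

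**Figure D5:**
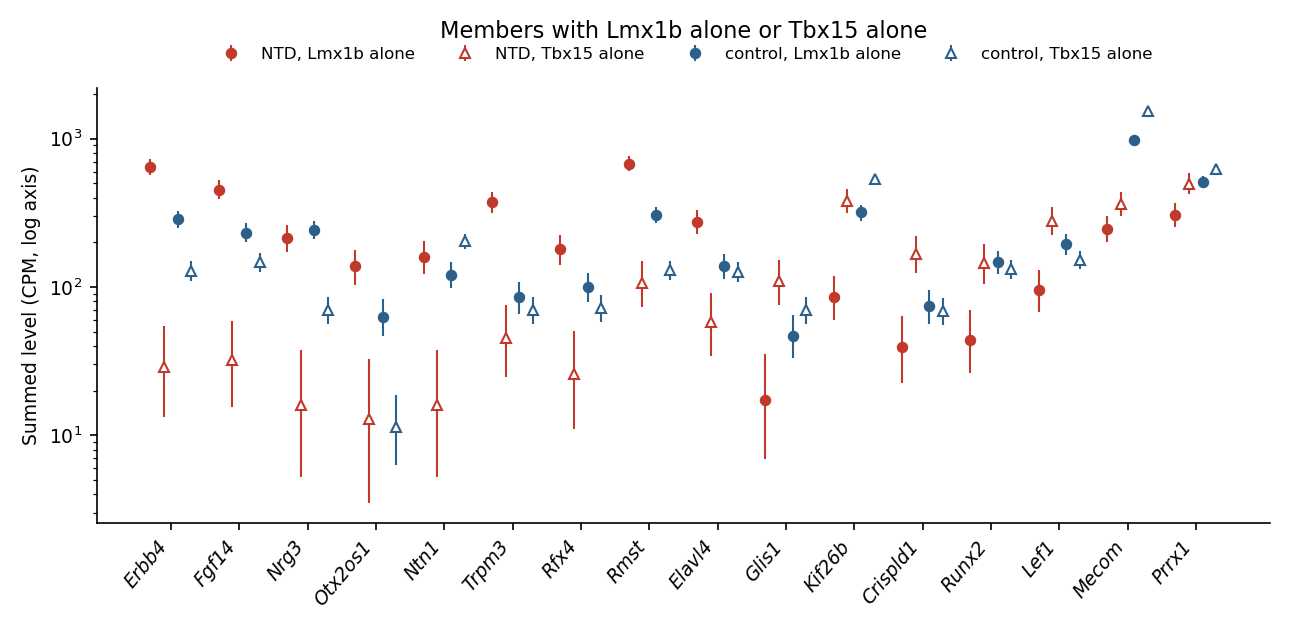
Summed level (vertical axis, CPM on a log scale) of each gene (horizontal axis) in members with Lmx1b alone (filled circles) and Tbx15 alone (open triangles), NTD in red and control in blue, with exact 95% Poisson intervals. Erbb4 stands at 648 CPM in NTD Lmx1b barcodes and 28.9 CPM in NTD Tbx15 barcodes, and at 287 CPM and 129 CPM in the control sets.

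The members were also set against the rest of their own library. In NTD, 1925 of 18340 genes were at least 2-fold higher in members (10.5%) and 1004 lower (5.47%); of the higher ones, 410 had an interval above 0. Alcam stood at 501 CPM in NTD members and 116 CPM in the rest of the library, a log2 ratio of 2.11 (1.97 to 2.25), and Colec12 at 341 CPM and 81.7 CPM, 2.07 (1.89 to 2.24). Sema3a, a repulsive guidance cue, was at 1.67 (1.51 to 1.82) and Lama2, a laminin chain, at 1.64 (1.37 to 1.89). Of the mesenchymal genes outside the rule, 8 of 12 passed 2-fold in NTD, with a median of 1.08. In control, 459 of 19003 genes were at least 2-fold higher in members (2.42%) and 1082 lower (5.69%), and 0 of the 12 mesenchymal genes outside the rule passed 2-fold, with a median of 0.17. Outside the rule's genes, Gpc5 had the highest ratio in control among genes at 100 CPM or more, at 417 CPM in members and 87.6 CPM in the rest, a log2 ratio of 2.25 (2.17 to 2.33), and Mecom stood at 1.59 (1.55 to 1.63). In NTD, Mecom stood at 389 CPM in members and 395 CPM in the rest, and Gpc5 at a log2 ratio of 1.12 (0.82 to 1.39). Whether the 2 libraries differ in these ratios was not tested.

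Between the members of the 2 libraries, 407 of 13221 genes were at least 2-fold higher in NTD (3.08%) and 960 at least 2-fold lower (7.26%), with a median log2 ratio of -0.14. With TMM scaling, which set the median at -0.05, 537 were higher and 801 lower. With 2 counts added in place of 0.5, 516 were higher and 513 lower, so the excess of lower genes depends on that choice. The members of the 2 libraries hold different mixtures of position genes, and the ratios below are read beside those of other mesenchyme. Mecom stood at 389 CPM in NTD members and 1712 CPM in control members, a log2 ratio of -2.14 (-2.30 to -1.98), against -0.43 (-0.49 to -0.37) in other mesenchyme. Within the Tbx15 barcodes it was at -2.08 (-2.37 to -1.81) and within the Lmx1b barcodes at -1.97 (-2.29 to -1.68). Gpc5 was seen in 13.8% of NTD members and 42.5% of control members, a log2 ratio of -1.73 (-2.04 to -1.45), against 0.01 (-0.15 to 0.16) in other mesenchyme. Lhx9 had 11 UMIs in NTD members and 331 UMIs in control members, a log2 ratio of -2.51 (-3.58 to -1.71), against 0.32 (-0.03 to 0.66) in other mesenchyme. Shox2 had 9 UMIs and 201 UMIs, a log2 ratio of -2.06 (-3.29 to -1.18), against 0.21 (-0.18 to 0.59) in other mesenchyme.

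Other genes were lower in NTD inside and outside the members alike. Tshz2, a teashirt zinc finger gene of the trunk, stood at 142 CPM in NTD members and 674 CPM in control members, a log2 ratio of -2.25 (-2.53 to -1.99), and at -2.42 (-2.54 to -2.31) in other mesenchyme. Meis1 was at -1.64 (-1.87 to -1.42) in members and -1.83 (-1.92 to -1.74) in other mesenchyme. Hoxa9 stood at 10.7 CPM in NTD members and 120 CPM in control members, a log2 ratio of -3.41 (-4.62 to -2.55). Many genes of the posterior Hox and hindlimb lists reached 20 UMIs through the larger control sum alone, so no count or median is given over these lists. Hoxc9, Hoxc10 and Hoxc11 had 0 UMIs in NTD members and 76, 64 and 36 UMIs in control members. Pitx1 stood at -1.29 (-2.28 to -0.53). Of the proximal list, 3 of 8 were lower at a list median of -0.67. On the distal list 3 of 10 were lower, 2 higher, and the median was -0.55. The distal genes higher in NTD members were Msx2, a BMP-responsive homeobox gene, at 1.23 (0.37 to 2.00) and Lhx2, which maintains limb outgrowth and also acts in forebrain and eye, at 1.15 (0.63 to 1.63). Pax1, a sclerotome gene of the paraxial list, had 0 UMIs in NTD members and 46 UMIs in control members. It too was measured through the control sum alone, so no count is given over that list.

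Genes higher in NTD members included head mesenchyme and neural progenitor genes. Of the head mesenchyme list, 4 of 14 measured were at least 2-fold higher, with a median of 0.50: Lhx8 at 2.51 (1.79 to 3.25), Dlx2 at 1.74 (0.59 to 2.80), Six2 at 1.66 (0.41 to 2.79) and Dlx1 at 1.54 (0.42 to 2.56). Lhx8 had 36 UMIs in NTD members and 32 UMIs in control members, and its log2 ratio was 1.33 in other mesenchyme. Of the neural progenitor list, 5 of 8 were higher, with a median of 1.20, led by Fabp7, a radial glia lipid carrier, at 335 CPM in NTD members and 121 CPM in control members. Fabp7 had nearly the same ratio in members, 1.48 (1.26 to 1.69), as in other mesenchyme, 1.45 (1.35 to 1.54). Erbb4 was at 1.21, at 381 CPM in NTD and 165 CPM in control, over all members, 1.17 (0.91 to 1.43) in the Lmx1b barcodes and -2.08 (-3.31 to -1.20) in the Tbx15 barcodes. Over all members it turned to -0.0248 (-0.42 to 0.33) with at least 3 mesenchymal genes required and to -0.0676 (-0.51 to 0.32) without Lmx1b as a position gene. Flrt2, an adhesion gene, stood at 391 CPM in NTD members and 164 CPM in control members, 1.25 (1.06 to 1.44), against 0.01 (-0.09 to 0.11) in other mesenchyme and 1.79 (1.49 to 2.09) in the Tbx15 barcodes. Matrix genes were close between the libraries, with 2 of 23 higher, 1 lower and a median of -0.08.

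Lists tied to the treatment and to the study's question had few genes past 2-fold, apart from p53 targets. Of 21 folate and one-carbon genes measured, 0 were higher and 1 lower, and the median was 0.00. The lower one, Folr1, a folate receptor, had 0 UMIs in NTD members and 21 UMIs in control members. It was thus measured through the control sum alone. Tyms, thymidylate synthase, stood at 160 CPM in NTD members and 144 CPM in control members. Of 16 genes of N6-methyladenine and H3K9 methylation, 0 passed 2-fold either way, with a median of -0.17. Alkbh1, the demethylase the study concerns, stood at 155 CPM in NTD members and 199 CPM in control members, a log2 ratio of -0.36 (-0.64 to -0.10), and Setdb1, an H3K9 methyltransferase, at -0.39 (-0.76 to -0.05). Of 19 p53 targets, 6 were at least 2-fold higher and 1 lower, with a median of 0.20, where 3.08% of all genes measured were higher and 7.26% lower. Whether these ratios are particular to members was not tested. The higher ones were Perp at 1.50 (-0.11 to 2.88), Pltp at 1.44 (0.54 to 2.26), Bbc3, a death effector, at 1.32 (0.34 to 2.20), Cdkn1a, the cell cycle inhibitor p21, at 1.10 (-0.25 to 2.23), Btg2, an antiproliferative gene, at 59.5 CPM in NTD members and 28.8 CPM in control members, and Ccng1 at 19.0 CPM and 9.60 CPM. The intervals of Perp and Cdkn1a include 0, with 7 and 9 UMIs in NTD members. Btg2 stood at a log2 ratio of 0.84 (0.63 to 1.06) in other mesenchyme, and in members at -0.90 (-6.80 to 1.07) with only Tbx4 and Tbx5 as position genes. Of 20 S phase genes 0 passed 2-fold, with a median of 0.13, and of 20 G2 and M phase genes 1 was lower, with a median of 0.02.

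Markers of other cell types in the members differed between the libraries, and their part in these ratios was not tested. The 8 neural progenitor markers summed to 683 CPM in NTD members and 323 CPM in control members, against 956 CPM and 457 CPM in the whole libraries. The 8 neuron markers summed to 1064 CPM in NTD members and 804 CPM in control members, against 1435 CPM and 1158 CPM. The 8 liver and yolk sac markers summed to 74.9 CPM in NTD members, where Alb and Apob were at 0 UMIs, and 413 CPM in control members. They were not particular to control members, where all 8 lay below the rest of the control library, with a median log2 ratio of -0.68. Of these, Afp stood at 143 CPM in control members. In control barcodes with neuron genes and no mesenchymal UMI it stood at 240 CPM, in blood barcodes at 111 CPM and in macrophage barcodes at 222 CPM. The 8 macrophage markers summed to 80.9 CPM in NTD members and 35.1 CPM in control members, the 8 endothelial markers to 72.5 CPM and 105 CPM, and the 9 erythroid markers to 12782 CPM and 10174 CPM. Few barcodes carried part of the NTD macrophage sum: among NTD members with Lmx1b alone, 1 barcode held 95.2% of the Lyz2 UMIs. The 8 muscle markers summed to 99.9 CPM in NTD members, where Myod1, Myf5 and Chrna1 were at 0 UMIs, and 114 CPM in control members.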

How the data were processed

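Single-cell RNA was measured with Chromium 3′ v3 reagents in 1 NTD and 1 control library. The authors deposited raw UMI counts per gene and barcode. Per the file headers these came from Cell Ranger 7.0.1. STAR and mm10 are named in the submitters' processing notes. For the annotation, intron setting and cell calling, the value is not given in the sources used here. All 37628 deposited barcodes were used. Members were taken by the UMI rule given above, and counts were summed over the barcodes of each set, scaled to CPM and compared as log2 ratios with 0.5 counts added, for genes with at least 20 UMIs over both sums. A gene counts as higher or lower at 2-fold. CPM has exact Poisson intervals, ratios exact conditional binomial intervals, shares Clopper-Pearson intervals and differences of shares Newcombe intervals, all at 95%. With 1 library per group there was no test and no p-value. The members and gene lists were chosen with earlier results of these data known.

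The genes named were the rule's genes, the 12 highest and 12 lowest ratios at 100 CPM or more in either sum with an interval that excludes 0, and from each list the genes with the highest CPM or largest ratio; haemoglobin, mitochondrial, ribosomal protein and predicted genes were passed over when ranking by size. Other named genes, and 4 of the 7 comparisons (members over the rest of each library, Lmx1b alone over Tbx15 alone in each library), were chosen after values were seen. Scrublet in scanpy 1.11.5 set a threshold that marked 0 barcodes, so doublets were not removed; leaving out the 15% highest scores was tried instead. The counting steps were tested on simulated data. Python 3.11.15, numpy 2.4.6, scipy 1.17.1, pandas 2.3.3, and edgeR 4.0.16 for TMM scaling only, were used. GENCODE M21 held 32235 of the 32285 gene IDs (99.8%) and may differ from the authors' annotation.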

Additional observations from a re-analysis of the deposited data

How the results depend on the processing

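No paired analysis was possible because each group is 1 library and the labels give no shared replicate numbers; no replicate could be left out. The planned removal of called doublets was not run, since no barcode was called. The difference in the share of members, NTD minus control, was -6.963 points among barcodes of at least 1589 UMIs, -3.925 after thinning to 1500 UMIs, -3.304 with at least 2 position UMIs, -3.348 with at least 3 mesenchymal genes, -4.663 without Lmx1b, -2.286 with only Tbx4 and Tbx5, and -4.919 without the 15% highest doublet scores, an alternative chosen after seeing the data. Wherever thinning is named in this section, the rule was applied again to the thinned counts, which left 83 NTD and 639 control members. The Hox share difference was -60.39 points after thinning, -77.2 with at least 2 position UMIs and -52.1 with only Tbx4 and Tbx5. The Hox log2 ratio was -4.537 after thinning, -3.027 without Lmx1b and -1.315 with only Tbx4 and Tbx5, where 19 NTD and 443 control members remain. Genes 2-fold apart between NTD and control members, 1367 in all, numbered 753 at 50 or more UMIs and 2808 with only Tbx4 and Tbx5. With 2 counts added, 516 were higher and 513 lower. For control members over other mesenchyme, 440 became 669 with at least 2 position UMIs, 952 with only Tbx4 and Tbx5 and 148 at 50 or more UMIs; for Tbx4 over Tbx5 cells, 311 became 51 at 50 or more UMIs. Log2 ratios of NTD over control members that changed sign were Isl1 at 0.18, Hand2 at 0.0241 and Dhrs3 at 0.99 after thinning, Fgf8 at -0.65 with at least 2 position UMIs, Erbb4 at -0.0248 and Rmst at -0.0582 with at least 3 mesenchymal genes, and Erbb4 at -0.0676 and Trpm3 at -0.0167 without Lmx1b. With only Tbx4 and Tbx5 they were Dcn at 0.35, Meox1 at 0.42, Hoxa11 at 0.70, Pecam1 at 1.295, Hoxd9 at 1.45, Bmp4 at 0.40 and Btg2 at -0.90. The cause was not tested. Leaving out the deepest member of each library, also chosen after seeing the data, moved none of these 6 summaries beyond its interval or by over 1.5 times. Of the other values of named genes under the alternatives, 6844 stayed within the counting interval and 738 moved outside it.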
